A study of Mus musculus with 12 samples.

Results

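The carnitine shuttle carries long-chain fatty acids into mitochondria, and its genes were followed in mouse liver from the fed state through 72 hours of fasting. The genes described are Cpt2, Cpt1b and Slc25a20, each represented by 1 probe that was chosen by its position on the array, together with any probe that the array files name Crat or Crot. Crot had 1 probe and Crat had none, which gave 4 genes of 6566 with a current symbol, each with 1 of the 20280 gene probes of the array. A search under current names and synonyms found 1 further probe of the family, for Cpt1c, and no probe for Cpt1a, the form of the outer-membrane enzyme that predominates in liver. The outer-membrane enzyme of hepatocytes was therefore not measured.

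The mice were male FVB animals of 6 weeks, fed or fasted for 12, 24 or 72 hours, with 3 arrays in each of the 4 groups. The labels name no altered allele and no drug in any group, and all mice were killed at the same hour of the morning. Fasted mice had no chow, were held in metabolic cages and were warmed by an infrared lamp. Each array was hybridised with Cy3-labelled RNA pooled from 2 livers and with a common Cy5-labelled reference pooled from 6 fed livers, so that every value is a log2 ratio of sample over fed reference. The spread between arrays may hold differences between pools and technical differences between arrays, and does not measure that between mice. The labels do not say which mice went into the reference, and the dyes were never exchanged, so a constant offset of a probe is the same on every array and drops out of differences between groups. The submitters' text calls the extracted RNA intestinal, while the sample titles say liver. The Ttr, Apoa1 and Trf probes, listed here for hepatocytes, were well above background on all 12 arrays. So were 87.4% to 99.3% of all probes on each array, so being well above background does not by itself tell liver from intestine. In the 72-hour group Ttr was at 591, Apoa1 at 1051 and the brighter Trf probe at 872 times background. The other Trf probe was at 14.9, and the median probe of these arrays at 9.44 to 10.6. Their brightness was not compared with intestine. The paper's methods also give liver as the source of the RNA.

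Fatty acids are activated to acyl-CoA in the cytosol, and acyl-CoA cannot cross the inner mitochondrial membrane. Carnitine palmitoyltransferase 1, of which Cpt1b encodes the form typical of muscle, moves the acyl group onto carnitine at the outer membrane. The carrier encoded by Slc25a20 exchanges the acylcarnitine for free carnitine across the inner membrane, and Cpt2 returns the acyl group to coenzyme A in the matrix. Crot encodes a carnitine octanoyltransferase of peroxisomes, where very long chains are shortened before export. In fasting liver the acyl-CoA delivered by the shuttle feeds beta-oxidation and ketone-body synthesis.

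Cpt2 was the shuttle gene with the largest difference from fed after 12 hours, 2.52-fold higher on the 2 arrays with a usable value. With the outlier-marked value of the third array kept it was 1.66-fold higher (limma adjusted p 0.833), and in the sample channel alone 1.70-fold higher (adjusted p 0.749). At 24 hours Cpt2 was 1.54-fold higher and at 72 hours 1.20-fold lower than fed. Slc25a20 was 1.36-fold higher at 12 hours and within 1.03-fold of fed later on. Crot was 2.59-fold lower at 72 hours, and Cpt1b stayed within 1.13-fold of fed at each time. None of these differences passed the test over all arrays, and the call for Cpt2 at 12 hours depended on 2 arrays of low signal, as given below. In whole liver, fewer cells of a type and less RNA per cell cannot be told apart.

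The arrays differed in quality. The median probe signal was 7.59 to 10.6 times the local background on fed and 72-hour arrays, 4.72 on replicate 2 of the 12-hour group and 3.50 on replicate 3 of the 24-hour group. The other 12-hour arrays were at 5.34 and 8.28 and the other 24-hour arrays at 6.07 and 5.85, so that most of them were also below the fed arrays. Replicate 2 at 12 hours and replicate 3 at 24 hours are below called the 2 arrays of low signal. On them the 4 members, outlier marks ignored, lay below the other arrays of their group. Each result is given with and without these arrays. Leaving them out can only keep or raise the members' 12-hour and 24-hour means. A higher value without them is therefore not separate support. The scanner software was run on 3 different days, here called A, B and C. Day A held fed replicate 1 with the 2 arrays of low signal, day B the other fed arrays with all 72-hour arrays, and day C the remaining 12-hour and 24-hour arrays. Without the 2 arrays of low signal, day and fasting therefore cannot be told apart for 12 or 24 hours against fed. All spots of the members were well above background and none was saturated, but 4 of their 48 values were marked as outliers by the scanner software and set to missing.

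The promoters of Cpt2, Slc25a20 and Crot are shown because these are the members that differed most from fed at 12 or 72 hours. They are RefSeq sequences of build GRCm38.p6, 250 bases before to 50 after the gene's start, read along the gene, with GC boxes (GGGCGG on either strand) and CCAAT (either strand) in capitals. RefSeq promoters of Cpt1b were not used here.
Cpt2, chr4:107923540-107923839, minus strand: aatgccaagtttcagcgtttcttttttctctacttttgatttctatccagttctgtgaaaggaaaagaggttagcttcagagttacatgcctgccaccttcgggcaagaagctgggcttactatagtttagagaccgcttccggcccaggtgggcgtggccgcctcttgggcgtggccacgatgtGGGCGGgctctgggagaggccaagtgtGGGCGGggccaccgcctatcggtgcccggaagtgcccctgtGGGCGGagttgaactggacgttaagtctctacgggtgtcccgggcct
Slc25a20, chr9:108661886-108662185, plus strand: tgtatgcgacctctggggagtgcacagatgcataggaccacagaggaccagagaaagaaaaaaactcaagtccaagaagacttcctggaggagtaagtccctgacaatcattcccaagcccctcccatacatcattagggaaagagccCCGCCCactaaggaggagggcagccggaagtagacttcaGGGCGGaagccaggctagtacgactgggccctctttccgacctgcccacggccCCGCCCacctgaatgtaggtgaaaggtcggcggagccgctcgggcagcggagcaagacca
Crot, chr5:8997097-8997396, minus strand: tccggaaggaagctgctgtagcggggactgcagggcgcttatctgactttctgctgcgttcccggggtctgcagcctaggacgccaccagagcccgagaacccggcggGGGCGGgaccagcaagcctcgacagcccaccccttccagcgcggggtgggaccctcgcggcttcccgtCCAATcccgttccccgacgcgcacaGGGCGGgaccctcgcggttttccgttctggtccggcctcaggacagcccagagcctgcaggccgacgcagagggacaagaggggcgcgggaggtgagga
The Cpt2 and Slc25a20 promoters held 3 GC boxes each and the Crot promoter held 2, where 19.5% of the 32851 mouse promoters of this length hold 2 or more. The motif CCAAT occurred 1 time, in Crot, and in 37.4% of all promoters. The core AGGTCA, to which nuclear receptors such as PPARalpha bind, was searched on both strands and was in none of these 3 windows, compared with 16.3% of all promoters. A direct repeat of that core with 1 base between was in none of them and in 0.0396% of all. These letters describe the windows only.

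The difference from fed was first examined for the step at the outer membrane. Cpt1b lies on chromosome 15 at 89416405 to 89425862 (GRCm38.p6). Its log2 ratios were -0.13 and 0.04 on fed replicates 1 and 3, the third fed value being marked as an outlier. They were 0.13, -0.99 and 0.20 at 12 hours, 0.27, 0.64 and -0.78 at 24 hours, and 0.13, -0.05 and 0.01 at 72 hours, in replicate order. The fed and 72-hour arrays were tightly grouped around 0, and both strongly negative values came from the arrays of low signal. The group means were -0.05 ± 0.12 (SD, n = 2) fed, -0.22 ± 0.67 (n = 3) at 12 hours, 0.04 ± 0.74 (n = 3) at 24 hours and 0.03 ± 0.09 (n = 3) at 72 hours, and the groups overlapped in each comparison with fed. The differences from fed were -0.18 (95% interval -1.15 to 0.80), 0.09 (-0.88 to 1.06) and 0.08 (-0.90 to 1.05) on the log2 scale, with limma adjusted p of 0.974, 1.00 and 1.00. At 12 hours the interval runs from 0.451-fold to 1.74-fold of fed.

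When the arrays of low signal were left out, Cpt1b was 0.21 above fed at 12 hours (SE 0.15, limma adjusted p 0.440) and 0.50 above fed at 24 hours (SE 0.15, adjusted p 0.0605), or 1.42-fold. With the outlier-marked fed value kept as well, the 24-hour difference of 0.51 passed the test (adjusted p 0.0329), where 9.5% of all probes did. Within day A, replicate 2 at 12 hours differed from fed replicate 1 by -0.86 and replicate 3 at 24 hours by -0.65, the opposite direction. With day as a term in the fit, Cpt1b differed from fed by -0.89 at 12 hours and passed (1.85-fold lower, adjusted p 0.0241), where 19.9% of all probes did, and by -0.62 at 24 hours (adjusted p 0.0872). Within day B the 72-hour mean differed from fed by -0.01. Since Cpt1b is best known from muscle, 7 muscle probes were examined beside it. Their summed normalised signal in the sample channel alone was 16453 to 45651 on fed arrays and 18189 to 20093 at 12 hours. It was 14716 to 19222 at 24 hours and 25918 to 45955 at 72 hours. The ratios of sample over reference did not show the same course: their median difference from fed was 0.02, -0.01 and -0.09 at 12, 24 and 72 hours. Of the 7 probes, 4, 2 and 2 were above 0 at these times. The brightest of the 7 was Actc1, at a median of 731 times background on fed arrays. All 7 were well above background on all 12 arrays, where 87.4% to 99.3% of all probes were so on each array. The part of muscle RNA in the Cpt1b signal was not tested.

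Cpt1c, which encodes a brain form of the enzyme, gave a low but detectable signal of 3.19 to 7.02 times background. Its log2 ratios ran from -0.24 to 0.31 over the 12 arrays with no order by fasting time. Its differences from fed were 0.11, 0.00 and 0.03 at 12, 24 and 72 hours, each with an SE of 0.17, and the groups overlapped.

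At the inner membrane, Slc25a20 lies on chromosome 9 at 108662136 to 108684642. Its log2 ratios were 0.71 and 0.57 on fed replicates 1 and 2, and 1.23 and 0.93 on 12-hour replicates 1 and 3. They were 0.73, 1.10 and 0.20 at 24 hours and 0.24, 0.85 and 0.92 at 72 hours. Both 12-hour values lay above both fed values, where 6.12% of all probes lay higher at 12 hours without overlap. That share is not like for like, since it also counts probes with 3 values in each group. The 12-hour value left out was 0.03 with its mark ignored, below every fed value. The 24-hour and 72-hour groups each spanned the fed range. The means were 0.64 ± 0.10 (SD, n = 2), 1.08 ± 0.21 (n = 2), 0.67 ± 0.45 (n = 3) and 0.67 ± 0.37 (n = 3) for fed, 12, 24 and 72 hours. The fed mean above 0 is an offset of this probe between a fed sample and a fed reference.

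Slc25a20 was 0.44 higher at 12 hours than fed (95% interval -0.31 to 1.19, limma adjusted p 0.959), and 0.03 higher at 24 hours (-0.65 to 0.72) and at 72 hours (-0.66 to 0.71). The order of means was 12 hours, 24 hours, 72 hours and fed, and no neighbours in that order differed beyond their spread, 24 hours differing from 12 hours by -0.41 with an SE of 0.30. Without the arrays of low signal the differences from fed were 0.44, 0.27 and 0.03. The missing values were 0.12 on fed replicate 3 and 0.03 on 12-hour replicate 2 when their marks were ignored, the first below the other fed arrays and the second below all of them. With the marks ignored and without the arrays of low signal, Slc25a20 was 1.53-fold higher at 12 hours (adjusted p 0.144, where 3.54% of all probes passed) and 1.36-fold higher at 24 hours (adjusted p 0.205). Within day A, replicate 3 at 24 hours differed from fed replicate 1 by -0.51.

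Cpt2, the matrix enzyme, lies on chromosome 4 at 107903982 to 107923589. Its log2 ratios were 0.12, 0.53 and -0.35 on the fed arrays and 1.64 and 1.22 on 12-hour replicates 1 and 3. At 24 hours they were 1.25, 1.11 and -0.18, and at 72 hours -0.69, -0.22 and 0.43. Both 12-hour values and the first 2 of the 24-hour values exceeded every fed and every 72-hour value, while the 72-hour arrays overlapped the fed arrays. Of all probes, 6.12% lay higher at 12 hours than fed without overlap. That share is not like for like, since it also counts probes with 3 values at 12 hours. The 12-hour value left out, on the array of low signal, was -0.37 with its mark ignored, below every fed value. The 24-hour value of -0.18 came from the other array of low signal.

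**Figure D1:**
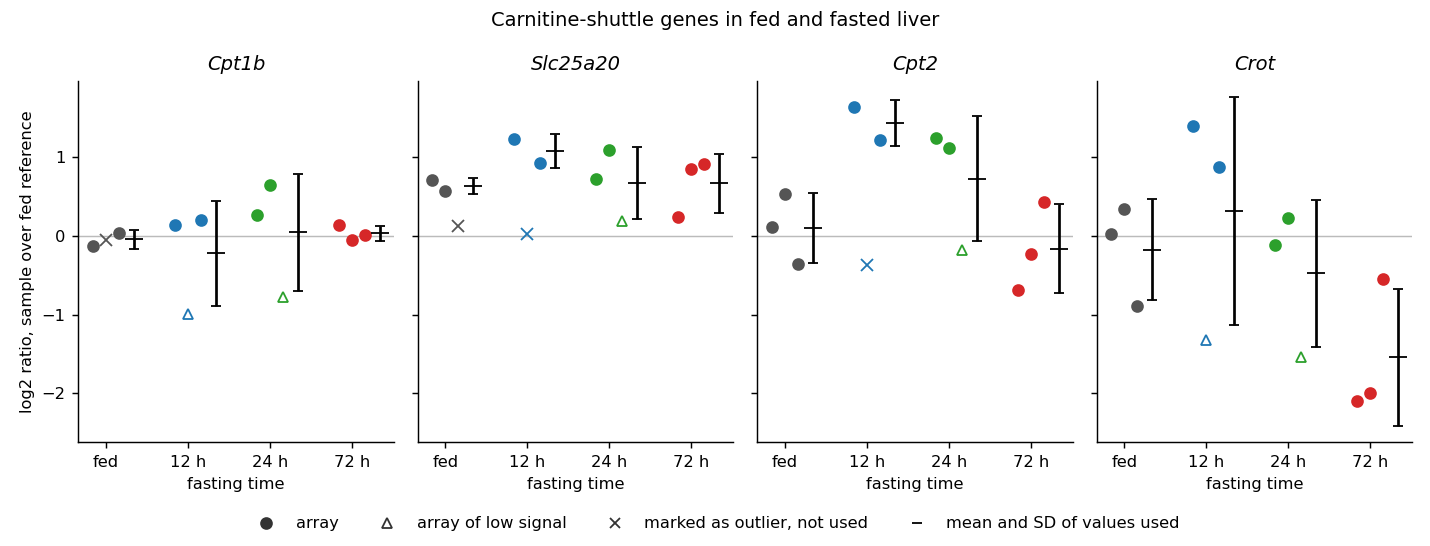
Log2 ratio of sample over fed reference (vertical axis) on each array against fasting time for Cpt1b, Slc25a20, Cpt2 and Crot. Triangles are the 2 arrays of low signal, crosses are values marked as outliers and not used, and bars give the mean and SD of the values used; Cpt2 reached 1.22 to 1.64 on the 2 usable arrays at 12 hours against -0.35 to 0.53 in fed liver.

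The Cpt2 means were 0.10 ± 0.44 (SD, n = 3) fed, 1.43 ± 0.30 (n = 2) at 12 hours, 0.73 ± 0.79 (n = 3) at 24 hours and -0.16 ± 0.57 (n = 3) at 72 hours. At 12 hours the difference from fed was 1.33 (SE 0.47, 95% interval 0.29 to 2.38), with an unadjusted limma p of 0.0177 and an adjusted p of 0.959. It was larger than that of 99.8% of the probes tested at 12 hours. That rank is not like for like, since the Cpt2 value on the 12-hour array of low signal was left out. Only 4.28% of all probes were marked as outliers on that array. With the marked value kept the Cpt2 difference was smaller, as given above. The differences were 0.63 (95% interval -0.31 to 1.56) at 24 hours and -0.26 (-1.20 to 0.67) at 72 hours, each with an adjusted p of 1.00. In the order 12 hours, 24 hours, fed and 72 hours, no neighbours differed beyond the test: 24 hours differed from 12 hours by -0.71 (SE 0.47) and 72 hours from fed by -0.26. The step from 24 to 72 hours did not pass either, with a difference of -0.89 (SE 0.42, unadjusted p 0.0604, adjusted p 1.00).

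None of the 4 members or Cpt1c passed at an adjusted p under 0.05 and 1.4-fold in any comparison, where 0.00995% of all probes passed at 12 hours, 0.00497% at 24 hours and 0.00996% at 72 hours against fed, and 0% in either step between fasting times. At an unadjusted limma p under 0.05, Cpt2 was the 1 of 5 at 12 hours, beside 3.91% of all probes. At 24 and 72 hours against fed, at 24 against 12 hours and at 72 against 24 hours no member was, beside 3.02%, 1.52%, 0.88% and 3.57% of all probes. The background of calls rose when the arrays of low signal were left out. Cpt2 at 12 hours then passed, with the same difference of 1.33 (SE 0.31, adjusted p 0.0486), among 2.85% of all probes. At 24 hours it was 1.08 above fed, or 2.12-fold (SE 0.31, adjusted p 0.0517), in a comparison where 8.21% of all probes passed. At 72 hours the value of -0.26 was unchanged with an adjusted p of 0.778.

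**Figure D2:**
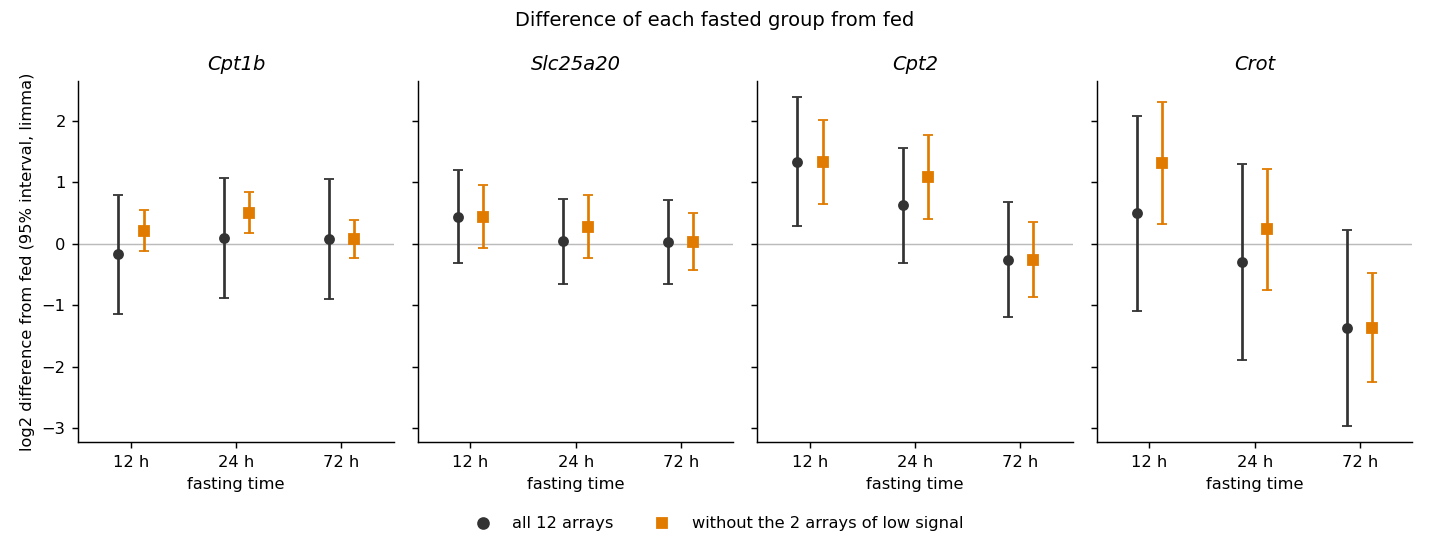
Log2 difference from fed (vertical axis) at 12, 24 and 72 hours for each member, with 95% intervals from limma, over all 12 arrays (circles) and without the 2 arrays of low signal (squares). The Cpt2 interval at 12 hours runs from 0.29 to 2.38 over all arrays, and the 24-hour value moves from 0.63 to 1.08 without the arrays of low signal.

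The comparison of days bears on the same result. Within day A, Cpt2 on 24-hour replicate 3 differed from fed replicate 1 by -0.30. Within day B the mean of 3 arrays at 72 hours differed from that of 2 fed arrays by -0.25, beside -0.26 over all arrays. Within day C, 24 hours differed from 12 hours by -0.25. With day as a term in the fit, Cpt2 was -0.30 (SE 0.54) at 24 hours against fed, which rests on 1 array of each group on day A. The 12-hour value of -0.05 (SE 0.66) sets no 12-hour array beside a fed one, since none of day A was usable, and combines that difference with the one between 12 and 24 hours on day C. The part of the day in the higher Cpt2 values of day C was not tested, since that day held no fed array.

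Both channels varied with the day. The reference is the same RNA on every array, yet its normalised log2 intensity at the Cpt2 probe was 10.60 to 10.90 on day A, 8.90 to 9.83 on day B and 9.58 to 10.73 on day C. The sample channel was 10.23 to 11.02 on day A, 8.75 to 9.67 on day B and 10.85 to 11.84 on day C. The sample exceeded the reference by more than 1 on all 4 arrays of day C and on no array of days A or B.

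**Figure D3:**
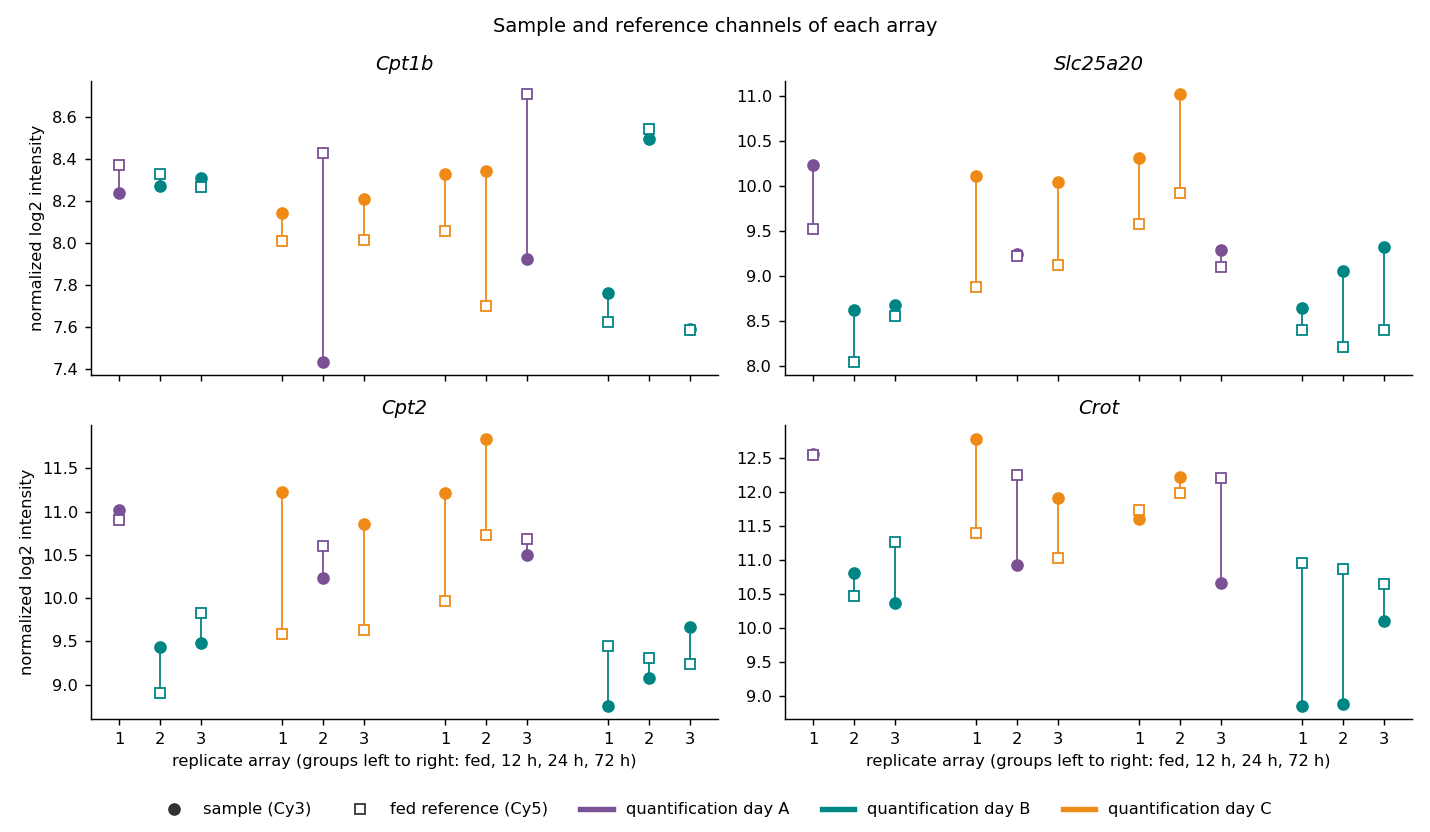
Normalised log2 intensity (vertical axis) of the sample channel (circles) and the reference channel (squares) on each replicate array, with fed, 12, 24 and 72 hours from left to right and colours for the day of quantification. For Cpt2 the sample lies above the reference by 1.11 to 1.64 on the 4 arrays of day C.

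Crot, the peroxisomal member, lies on chromosome 5 at 8966033 to 8997146. Its log2 ratios were 0.02, 0.35 and -0.89 on the fed arrays, 1.39, -1.33 and 0.88 at 12 hours, -0.12, 0.23 and -1.54 at 24 hours, and -2.10, -1.99 and -0.55 at 72 hours. Replicates 1 and 3 at 12 hours were above every fed array and 72-hour replicates 1 and 2 were below every one, but each fasted group overlapped the fed group. The low values at 12 and 24 hours came from the arrays of low signal.

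The Crot means were -0.17 ± 0.64 fed, 0.32 ± 1.45 at 12 hours, -0.47 ± 0.94 at 24 hours and -1.55 ± 0.87 at 72 hours (SD, n = 3 each). The difference from fed was 0.49 (SE 0.72) at 12 hours, -0.30 (SE 0.72) at 24 hours and -1.37 at 72 hours (95% interval -2.96 to 0.22, unadjusted limma p 0.0842, adjusted p 1.00). Only 0.0647% of the probes tested at 72 hours had a difference as low or lower. With the arrays of low signal left out, Crot was 1.31 above fed at 12 hours, or 2.48-fold (SE 0.45, adjusted p 0.123), 0.23 above at 24 hours (SE 0.45, adjusted p 0.762) and again at -1.37 at 72 hours (adjusted p 0.146), so the sign at 24 hours turned. Within day A, the 12-hour and 24-hour arrays of low signal differed from fed replicate 1 by -1.35 and -1.56, the opposite direction to the values without them. Within day B the 72-hour mean was -1.55 and the fed mean -0.27, a difference of -1.27, and within day C 24 hours differed from 12 hours by -1.08. The order of means was 12 hours, fed, 24 hours and 72 hours, and no neighbouring pair passed the test.

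When each array was weighted by how closely its values followed the fit of its group, 4 differences passed. The weights of single arrays were not examined. Most 12-hour and 24-hour arrays were of day C, which held no fed array, so day and fasting cannot be fully told apart there. Cpt2 was 1.13 above fed at 12 hours (limma adjusted p 0.0156), Slc25a20 was 0.53 above fed at 12 hours (adjusted p 0.0329), Crot was -1.61 at 72 hours (adjusted p 0.0233), and Cpt2 at 72 against 24 hours was -1.28 (adjusted p 0.0327). In these comparisons 9.65%, 4.13% and 4.19% of all probes passed, for 12 hours against fed, 72 hours against fed and 72 against 24 hours.

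Across arrays the members moved to different degrees with one another. Over 11 arrays, Pearson's r between the log2 ratios of Cpt2 and Crot was 0.883, and over 10 arrays it was 0.767 between Cpt2 and Slc25a20 and 0.507 between Cpt2 and Cpt1b. Without the arrays of low signal these were 0.874 over 10 arrays, 0.751 over 9 and 0.514 over 9. Other pairs moved more: Cpt1b with Slc25a20 went from 0.629 over 9 arrays to 0.291 over 8, and Cpt1b with Crot from 0.466 over 11 to 0.316 over 9. The arrays share the reference and the days of quantification, so these values are descriptive.

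The genes with a symbol whose ratios followed a member most closely were named by Pearson's r over the arrays on which the member had a value. For Cpt2 they were Arsb (0.979), Mgll (0.976) and Gpd1 (0.972) over 11 arrays, among 5189 candidate probes. For Slc25a20 they were Ptp4a2 (0.973), Cxxc5 (0.972) and Numb (0.960) over 10 arrays, and for Cpt1b Ankrd49 (0.986), Rbbp9 (0.983) and Rad52 (0.980) over 11. Without the arrays of low signal, r was 0.974 to 0.986 for the Cpt2 group, 0.949 to 0.964 for the Slc25a20 group and 0.919 to 0.944 for the Cpt1b group.

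The steps around the shuttle were represented by 36 probes of 31 of 61 listed genes. Over all arrays, none rose or fell past the test at 12, 24 or 72 hours, and at an unadjusted limma p under 0.05 there were 2 higher at 12 hours, 2 higher at 24 hours, and 1 higher and 1 lower at 72 hours, beside 3.91%, 3.02% and 1.52% of all probes in either direction. The median difference of these probes was 0.05, 0.10 and 0.06 on the log2 scale, beside -0.03, -0.01 and 0.00 for all probes. The probe with the smallest p in each group of genes is described next.

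Of the genes that supply carnitine, Slc22a5, the plasma-membrane carnitine transporter, had log2 ratios of 0.31, 0.05 and -0.03 on fed arrays, 1.23, 1.48 and 1.12 at 12 hours, 1.15, 1.25 and 0.24 at 24 hours and 0.20, 0.10 and 0.21 at 72 hours. All 12-hour arrays, including the array of low signal, were above all fed arrays, as was so for 6.12% of all probes. The differences were 1.17 (SE 0.25), 0.77 (SE 0.25) and 0.06 (SE 0.25), with limma adjusted p of 0.959, 1.00 and 1.00. Slc22a5 passed without the arrays of low signal at 12 hours (2.10-fold, adjusted p 0.00595) and 24 hours (2.14-fold, adjusted p 0.00285), and then was 2.05-fold lower at 72 than at 24 hours (adjusted p 0.0168).

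Among genes of acyl-CoA supply, Dbi, the acyl-CoA binding protein, had log2 ratios of -3.20, -2.46 and -1.83 on the 72-hour arrays, against 0.19, 0.11 and -0.34 on fed arrays. All 72-hour arrays were below all fed arrays, as was so for 12.2% of all probes. The difference was -2.49 (SE 0.61, limma adjusted p 1.00). It passed without the arrays of low signal, at 5.60-fold lower (adjusted p 0.00510).

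Ehhadh, the bifunctional enzyme of peroxisomal beta-oxidation, was 0.05, 0.46 and -0.34 on fed arrays and 3.02, 0.21 and 2.41 at 12 hours, the middle value being that of the array of low signal. Its differences from fed were 1.83 (SE 0.70), 1.05 (SE 0.70) and 0.50 (SE 0.70) at 12, 24 and 72 hours, none past the test. Leaving out the arrays of low signal, it was 6.33-fold higher at 12 hours (adjusted p 0.00554) and 3.24-fold higher at 24 hours (adjusted p 0.0124).

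Lpin1, which encodes a coactivator of PPARalpha and a phosphatidate phosphatase, was -0.48, -0.62 and -0.08 on fed arrays and 2.63, 3.46 and 2.13 at 72 hours. The groups did not overlap, where 12% of all probes lay higher at 72 hours without overlap. The difference was 3.13 (SE 0.72, limma adjusted p 0.929). The same difference, 8.76-fold, passed without the arrays of low signal (adjusted p 0.00493). The remaining groups were led by Acadvl, the very-long-chain acyl-CoA dehydrogenase (0.59 above fed at 12 hours, SE 0.33), by Mlycd, which removes the Cpt1 inhibitor malonyl-CoA (0.81 above fed at 72 hours, SE 0.56), and by Acat1 of ketone-body metabolism (0.41 above fed at 24 hours, SE 0.36). A second Acat1 probe differed from fed by -0.21 at 24 hours (SE 0.67).

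Without the arrays of low signal, 7 of the 36 probes rose and 2 fell at 12 hours, 9 rose and 2 fell at 24 hours, and 1 rose and 1 fell at 72 hours, with medians of 0.48, 0.40 and 0.06 on the log2 scale. Of all probes, 2.85%, 8.21% and 0.995% passed in these comparisons. In matrix beta-oxidation, 2 of 7 probes rose at 12 hours and 3 of 7 at 24 hours, and none fell. All 7 had positive differences at both times. Over all arrays, 4 of these 7 were above 0 at each time, with medians of 0.002 and 0.40, and none passed. Without the arrays of low signal, day and fasting cannot be told apart at 12 or 24 hours. Of peroxisomal chain shortening, 2 of 5 rose at each of these times. None of the 3 probes of ketone-body synthesis or of malonyl-CoA control passed at any time. At 72 hours, 0 of 7 matrix and 0 of 5 peroxisomal probes passed.

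Some of the further genes behind these counts were singled out after their values were seen. Acadm, the medium-chain acyl-CoA dehydrogenase, rose 2.10-fold at 12 hours and 2.95-fold at 24 hours (limma adjusted p 0.0349 and 0.00621). Acsl1, an acyl-CoA synthetase of liver, rose 3.80-fold and 2.12-fold (adjusted p 0.00938 and 0.0261). Over all arrays Acadm was 1.15-fold and 1.76-fold higher and Acsl1 1.98-fold and 1.53-fold higher, none past the test. The 12-hour array of low signal held the lowest value of all 12 arrays for both, -1.27 for Acadm and -1.10 for Acsl1.

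In the opposite direction, 1 of the 3 Acsl3 probes fell 2.08-fold and 1.83-fold at 12 and 24 hours (adjusted p 0.0315 and 0.0308). Over all arrays this probe was 1.42-fold and 1.59-fold lower and did not pass. The Cd36 probe fell 1.53-fold and 1.56-fold (adjusted p 0.0432 and 0.0218), although its values on the 2 arrays of low signal, 2.16 and 1.19, were the highest of all 12 arrays.

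**Figure D4:**
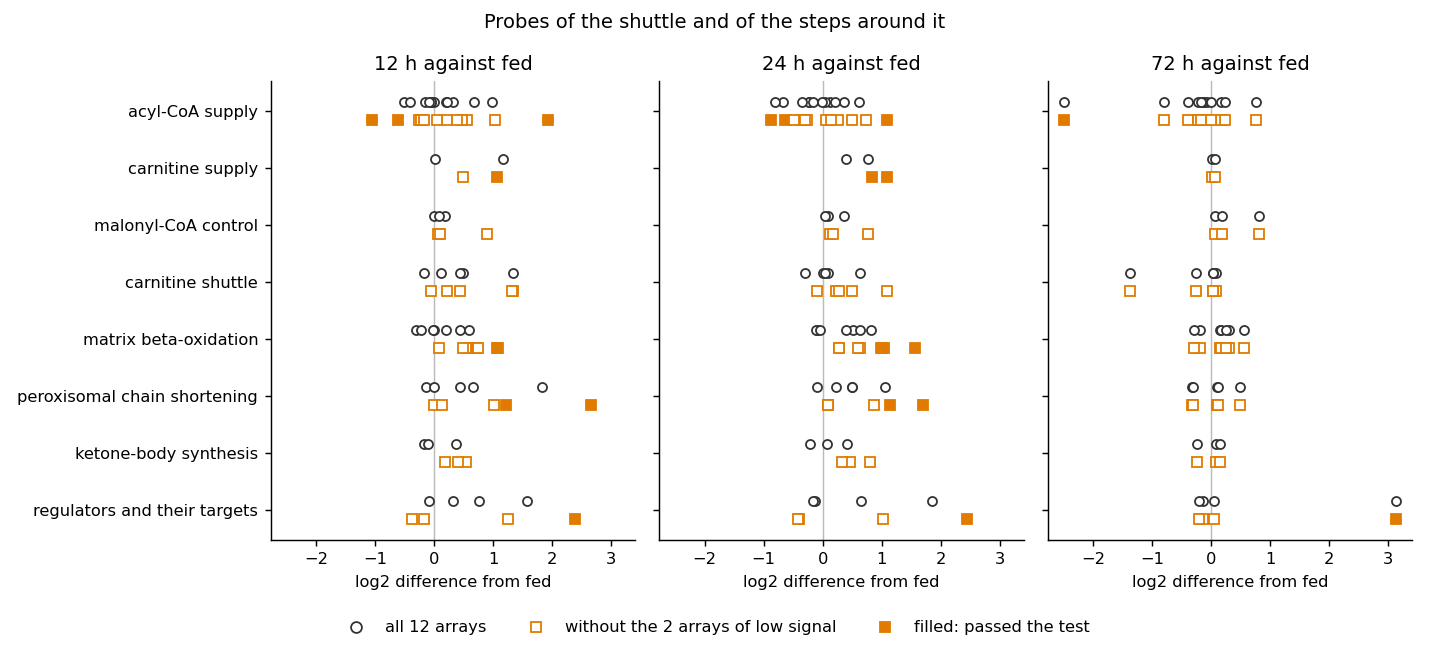
Log2 difference from fed (horizontal axis) of each probe of the shuttle and of 7 groups of genes around it at 12, 24 and 72 hours, over all 12 arrays (circles) and without the 2 arrays of low signal (squares). Filled squares passed the test and no circle did. The 7 matrix beta-oxidation probes lie above 0 at 12 and 24 hours without the arrays of low signal. Over all arrays, 4 of the 7 do at each of these times.

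The hepatocyte probes were examined beside these differences. Their summed normalised sample signal was 161970 to 171606 on fed arrays, 132938 to 147218 at 12 hours, 135462 to 140813 at 24 hours and 90838 to 130227 at 72 hours. In the ratios of sample over reference, 2 of the 4 hepatocyte probes lay above fed after 12 hours, 1 after 24 hours and 2 after 72 hours. The median differences were 0.01, -0.22 and -0.48 in that order. After 72 hours the mean ratio of Ttr was -1.24, against 0.10 in fed liver, while that of Apoa1 was 0.59, against 0.44. The last median therefore lies between probes that moved in opposite directions. Macrophage and leukocyte probes summed to 6925 to 8431 on fed arrays, 3002 to 5802 at 12 hours, 4257 to 6073 at 24 hours and 6260 to 7144 at 72 hours. None of the probes for hepatocytes or for the 8 other cell types examined passed the test in any comparison with fed, and their part in the results of the shuttle was not tested.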

How the data were processed

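RNA of 12 liver pools was hybridised with a fed reference on 2-colour Agilent 60-mer arrays. The deposited scanner files hold unnormalised intensities, as medians of spots and backgrounds. The same files hold the scanner software's log10 ratios, dye-normalised per the file headers, which the deposited value table repeats with the sign turned. The authors subtracted background, quantile-normalised and applied a Split-Factor ANOVA.

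Here, in R 4.3.3 with limma 3.58.1, intensities were corrected by normexp (offset 50), quantile-normalised over 24 channels and turned into log2 ratios of sample to reference. Outlier-marked spots were set to missing. A probe was tested when its sample spots were well above background on all arrays of 1 group. The 4 groups shared 1 spread per probe (lmFit, eBayes). A call needed a Benjamini-Hochberg adjusted p under 0.05 and 1.4-fold. Precision is limited by the number of arrays, and the code was tested on simulated data. Where nothing says that pools were prepared separately, p-values measure the spread between these arrays, which may be technical.

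Of 9196 probes that the files name, 8456 were matched to current symbols. Named were all shuttle probes, called pathway probes and the probe of smallest p in each pathway group, and the 3 probes most like each member, and 1 gene of the pathway lists is not reported here by name. Members and lists were chosen with earlier results of these data known. Alternatives covered background, normalization, filters, weights, days, the replicate block and arrays left out.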

Additional observations from a re-analysis of the deposited data

How the results depend on the processing

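All values below are log2 differences unless counts are named, and the cause of a change between settings was not tested. Precision is limited by 3 arrays a group, by dim signals on 2 arrays and by the 4 missing values. With quantification day as a term, the 12-hour and 24-hour comparisons with fed rest on fed replicate 1 and the arrays of low signal, for Cpt2 and Slc25a20 on the 24-hour one alone, with 12 hours linked to it through day C. Cpt2 was then -0.053 at 12 hours, -0.30 at 24 hours and 0.051 at 72 against 24 hours. Slc25a20 was -0.35, -0.51 and 0.61. Cpt1b was -0.89 (limma adjusted p 0.0241), -0.62 and 0.61, and -0.011 at 72 hours against fed. Crot was -1.06 at 12 hours and 0.57 at 72 against 24 hours, and Cpt1c -0.12 in the latter.

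Without both arrays of low signal, Cpt2 was 1.33 at 12 hours and passed (adjusted p 0.0486), Cpt1b was 0.21 at 12 hours, Crot 0.23 at 24 hours, and Cpt1c -0.046 at 12 and -0.089 at 24 hours. With outlier-marked spots kept as well, a setting chosen after seeing the data, these were 1.33 (adjusted p 0.0460), 0.21, 0.23, -0.046 and -0.089, and Cpt2 at 24 hours (1.08, adjusted p 0.0482) and Cpt1b at 24 hours (0.51, adjusted p 0.0329) passed. Array weights gave calls for Cpt2 (1.13) and Slc25a20 (0.53) at 12 hours, Crot at 72 hours (-1.61) and Cpt2 at 72 against 24 hours (-1.28), and turned Cpt1b (0.15) and Cpt1c (-0.0087) at 12 hours and Cpt1c (-0.019) at 24 hours.

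Cpt2 at 12 hours was 0.73 (adjusted p 0.833) with outlier-marked spots kept over all arrays and 0.77 (adjusted p 0.749) in the sample channel alone. The latter turned Cpt1b to -0.073 at 24 and -0.32 at 72 hours, Slc25a20 to -0.16 at 72 hours and Crot to 0.25 at 24 hours against fed. At 24 against 12 hours it gave 0.41 for Cpt2, 0.39 for Slc25a20 and 0.014 for Cpt1c, and at 72 against 24 hours -0.23 for Cpt1c. Slc25a20 at 72 against 24 hours was 0.0066 with plain background subtraction and 0.00048 with loess, and Cpt1c at 24 hours was -0.13 in the scanner software's log ratio.

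Of the 5 shuttle probes, 2 passed at 12 hours with array weights, 1 with day as a term, 1 without the arrays of low signal and 1 with marked spots kept too, when 2 passed at 24 hours. With array weights 1 passed at 72 hours and 1 at 72 against 24 hours. Of all probes, 2, 1 and 2 passed at 12, 24 and 72 hours against fed in the reported setting. These counts were 1941, 2160 and 829 with array weights, 3994, 1944 and 5 with day as a term, 573, 1652 and 200 without the arrays of low signal, and 713, 1914 and 198 with marked spots kept too. They were 0, 0 and 76 with only the compared groups, 1, 2 and 2 with background subtraction, 1, 1 and 0 with loess, 0, 0 and 0 with the scanner's ratio (929, 873 and 404 at an unadjusted p under 0.05, limma), and 0, 0 and 2 with the sample channel alone (1351, 1153 and 600 so). At 72 against 24 hours they were 842 with array weights, 1665 with day as a term, 188 without the arrays of low signal and 246 with marked spots kept too, and at 24 against 12 hours 143 with array weights.

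The replicate numbers in the titles do not pair the samples: 5 of 18 same-number pairs had a correlation over 0.1 (median -0.145), and 2 of 12 arrays correlated best with their own number. The replicate block called 2, 2 and 2 probes against fed and changed no call of the 5 shuttle probes.

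When 1 array was left out, no shuttle probe passed. Against fed, Cpt2 ranged from 1.11 to 1.55 at 12 hours, 0.37 to 1.08 at 24 hours and -0.56 to 0.0048 at 72 hours. Slc25a20 ranged from 0.29 to 0.59, -0.18 to 0.27 and -0.094 to 0.24, Cpt1b from -0.38 to 0.21, -0.21 to 0.50 and -0.011 to 0.16, Crot from -0.047 to 1.31, -0.66 to 0.23 and -1.87 to -1.10, and Cpt1c from -0.046 to 0.23, -0.089 to 0.056 and -0.023 to 0.083. At 24 against 12 hours Cpt1b ranged from -0.12 to 0.68 and Cpt1c from -0.23 to 0.046. At 72 against 24 hours Cpt1b ranged from -0.43 to 0.29, Cpt1c from -0.024 to 0.12 and Slc25a20 from -0.24 to 0.21. The counts over all probes ranged from 0 to 2 at 12 hours, 0 to 2 at 24 hours and 1 to 5 at 72 hours. Without 12-hour replicate 2, Crot at 12 hours moved from 0.49 to 1.31, without 24-hour replicate 3, Cpt2 at 24 hours from 0.63 to 1.08, and without 24-hour replicate 1 the latter was 0.37. No other call or direction of the 4 members changed under the settings named.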
